A study of Mus musculus with 18 samples.

Results

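The immunoglobulin gene segments are the genes from which antibody heavy and light chains are assembled. The members were the genes of the deposited table annotated as an immunoglobulin constant (C), variable (V), joining (J) or diversity (D) segment with a summed count of at least 10 over 18 libraries. This left 90 members among 264 such genes and 54532 genes in all: 6 heavy-chain C genes, 1 kappa C gene, 3 lambda C genes, 29 heavy V genes, 44 kappa V genes, 2 lambda V genes, 4 heavy J segments and 1 heavy D segment. The members were chosen by their summed count, which is given as a description only. Just inside the threshold lay Ighv3-8 and Igkv6-13 with 10 counts each, and just outside it lay Ighv1-15, Ighv1-62-2, Ighv1-82 and Ighv5-17 with 9 counts each.

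RNA came from whole larynges of male C57BL6/J mice aged 8 to 9 weeks, in 3 groups of 6 libraries. The air group breathed room air, the smoke group breathed smoke of 3R4F research cigarettes, and the e-cigarette group breathed aerosol of JUUL Virginia tobacco e-cigarettes. All 3 groups spent 1 hour a day, 5 days a week, for 4 weeks in a whole-body inhalation chamber. The labels name no mutation, transgene or other agent in any group, and whether a library stands for 1 animal is not stated, so p-values refer to the spread among the libraries, which may be technical.

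A B cell builds its heavy chain by joining a V, a D and a J segment to a constant gene, and its light chain by joining a V and a J segment at the kappa or the lambda locus. The joined V gene is passed on to all descendants of that cell, so a V gene can serve as a coarse tag of related antibody-secreting cells. Ighm encodes the constant part of IgM, the first isotype made, and Igha that of IgA, the main antibody of mucosal surfaces. IgA is secreted by plasma cells, many of which lie beside glands, as dimers held by the joining chain (Jchain) and is carried across the epithelium by the polymeric immunoglobulin receptor (Pigr).

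The segments that the results turn on are shown first, read from the GENCODE M21 transcripts of the build GRCm38, coding bases only, 5′ to 3′ in the direction of transcription. The 4 heavy J segments (chr12:113428514-113429833, minus strand) are shown with all their coding bases because they close the heavy-chain variable exon. Capitals mark the run TGGGG, which holds the conserved tryptophan codon.
Ighj1: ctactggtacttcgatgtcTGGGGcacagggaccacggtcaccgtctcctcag
Ighj2: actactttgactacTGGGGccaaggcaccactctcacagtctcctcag
Ighj3: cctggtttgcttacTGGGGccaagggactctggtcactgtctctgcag
Ighj4: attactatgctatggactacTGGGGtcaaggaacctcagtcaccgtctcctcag
The D segment among the members, 17 bases long (chr12:113525313-113525329, minus strand), lies between V and J in a joined gene.
Ighd3-1: ggcacagctcgggctac
The next 8 V genes each supplied the largest V count of their chain in at least 1 library, and their last 75 coding bases are shown because these carry the conserved cysteine codon (capitals) at which the antigen-binding loop of the joined gene begins. The heavy V genes end 6 or 8 bases after that codon and the kappa V genes 23 or 24 bases after it. On the minus strand of chromosome 12 lie Ighv1-64 (chr12:115507545-115508031), Ighv1-26 (chr12:114788372-114788805), Ighv11-2 (chr12:114048241-114048812) and Ighv14-3 (chr12:114059845-114060321). On the plus strand of chromosome 6 lie Igkv1-117 (chr6:68121046-68121827), Igkv14-126 (chr6:67896172-67896642), Igkv16-104 (chr6:68425575-68426072) and Igkv17-127 (chr6:67861153-67861659).
Ighv1-64: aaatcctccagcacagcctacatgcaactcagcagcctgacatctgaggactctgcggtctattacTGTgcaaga
Ighv1-26: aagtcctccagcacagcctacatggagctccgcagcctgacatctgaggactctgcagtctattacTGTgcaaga
Ighv11-2: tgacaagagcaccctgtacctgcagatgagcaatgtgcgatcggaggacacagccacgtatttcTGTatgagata
Ighv14-3: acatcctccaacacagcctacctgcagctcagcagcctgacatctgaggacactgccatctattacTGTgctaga
Igkv1-117: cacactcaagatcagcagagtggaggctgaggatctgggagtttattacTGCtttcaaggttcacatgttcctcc
Igkv14-126: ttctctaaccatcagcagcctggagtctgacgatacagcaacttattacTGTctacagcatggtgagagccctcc
Igkv16-104: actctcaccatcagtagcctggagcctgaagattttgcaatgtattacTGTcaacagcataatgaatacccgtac
Igkv17-127: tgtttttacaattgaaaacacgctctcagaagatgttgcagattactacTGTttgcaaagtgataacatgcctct
A last set shows why some V genes have uncertain counts. Igkv10-94 (chr6:68704508-68704978) and Igkv10-96 (chr6:68631963-68632442) differed at 16 of 347 coding bases (95.4% identity), and Iglv1 (chr16:19085017-19085500) and Iglv2 (chr16:19260401-19260859) differed at 11 of 351 (96.9% identity). All 4 lie on the minus strand. The last 150 coding bases are shown, with the differing bases in capitals, 14 for the kappa pair and 5 for the lambda pair.
Igkv10-94: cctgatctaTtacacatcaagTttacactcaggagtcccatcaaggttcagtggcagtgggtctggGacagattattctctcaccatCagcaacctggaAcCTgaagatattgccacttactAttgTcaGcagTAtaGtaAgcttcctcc
Igkv10-96: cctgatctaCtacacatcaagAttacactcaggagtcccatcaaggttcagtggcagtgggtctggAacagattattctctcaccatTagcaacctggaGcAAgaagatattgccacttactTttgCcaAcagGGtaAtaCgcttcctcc
Iglv1: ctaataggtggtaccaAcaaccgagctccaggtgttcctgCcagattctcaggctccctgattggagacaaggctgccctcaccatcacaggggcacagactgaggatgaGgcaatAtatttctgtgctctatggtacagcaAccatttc
Iglv2: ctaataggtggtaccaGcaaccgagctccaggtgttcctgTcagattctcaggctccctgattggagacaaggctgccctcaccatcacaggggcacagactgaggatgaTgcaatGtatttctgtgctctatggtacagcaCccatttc
Reads from stretches without a capital cannot be assigned to 1 gene of the pair. Over all members, 11 of 88 had fewer than 50% of their windows of 50 bases unique among the reference transcripts, and none of 85 had fewer than 50% unique windows of 100 bases. Read length was not stated.

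The libraries held 15551432 to 22469894 counts, of which the members took 491 to 1916, or 0.00248% to 0.0114%. Air library 5 had the fewest counts and yet the most genes with a count, 26788, against 24914 or fewer in every other library. Summed marker levels of 4 thyroid genes ranged from 56304 to 98195 CPM (counts divided by library size and scaled) in the air libraries and from 85.3 to 29063 in the e-cigarette libraries, where libraries 2, 4, 5 and 6 had 2831 or less and libraries 1 and 3 had 26707 and 29063. Summed levels of 8 gland genes were 3637, 815 and 1405 CPM in air libraries 4, 5 and 6, against 14441 to 22123 in air libraries 1, 2 and 3. The e-cigarette libraries had 11896 to 43868 CPM of these and the smoke libraries 11833 to 22418. Summed levels of 8 B cell markers were 1.04 to 3.72 CPM in e-cigarette libraries, against 4.39 to 8.65 in air and 4.46 to 7.44 in smoke libraries. Those of 10 T cell markers were 2.83 to 5.24, 4.45 to 8.08 and 4.16 to 6.36 CPM in the same order. For 6 plasma cell markers they were 129 to 224, 139 to 192 and 121 to 221 CPM, of which Jchain supplied at most 10.4. In bulk tissue, fewer cells of a type and less RNA per cell cannot be told apart. CPM values use library sizes scaled by edgeR's TMM factors.

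IgA ranged more widely within each group than the group medians differed. Igha (ENSMUSG00000095079, chr12:113254830-113260236, minus strand) ranged from 1.31 to 38.3 CPM in air (median 22.2), from 1.47 to 31.1 in smoke (median 7.83) and from 3.67 to 27.0 in e-cigarette libraries (median 9.37). Air libraries 1, 2 and 3, smoke libraries 5 and 6 and e-cigarette library 6 were the high ones, air libraries 5 and 6 and smoke library 1 the lowest, and the 3 groups overlapped. The log2 fold change was -0.70 (SE 0.85, edgeR Benjamini-Hochberg adjusted p = 0.688) in smoke against air, -0.73 (SE 0.85, adjusted p = 0.570) in e-cigarette against air and 0.03 (SE 0.85, adjusted p = 0.986) in smoke against e-cigarette. The 95% interval of the first comparison ran from -2.50 to 1.10, so a change of either sign was not detectable at this spread. The air libraries with little Igha were the ones low in gland transcripts, and the part of the gland content in the Igha level was not tested. Without air libraries 4, 5 and 6 the Igha log2 fold change was -1.55 in smoke (adjusted p = 0.332) and -1.56 in e-cigarette libraries (adjusted p = 0.175), a shift of more than 1.5 times. Without e-cigarette libraries 2, 4, 5 and 6 it was -1.20 in e-cigarette against air (adjusted p = 0.705).

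IgM varied less between libraries than IgA and the kappa chain. Ighm (ENSMUSG00000076617, chr12:113418558-113422730, minus strand) ranged from 22.1 to 33.4 CPM in air (median 27.5), from 15.3 to 26.3 in smoke (median 20.8) and from 19.4 to 32.1 in e-cigarette libraries (median 23.8). Smoke libraries 4, 5 and 6 lay below every other library, and the other 3 smoke libraries lay within the range of air. The highest library exceeded the lowest by 2.18 times for Ighm, against 29.3 times for Igha and 17.3 times for Igkc. The log2 fold change of Ighm in smoke against air was -0.39 (SE 0.15, unadjusted p = 0.0185), with an adjusted p of 0.160. In e-cigarette libraries it was -0.16 (SE 0.15, adjusted p = 0.467).

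**Figure D1:**
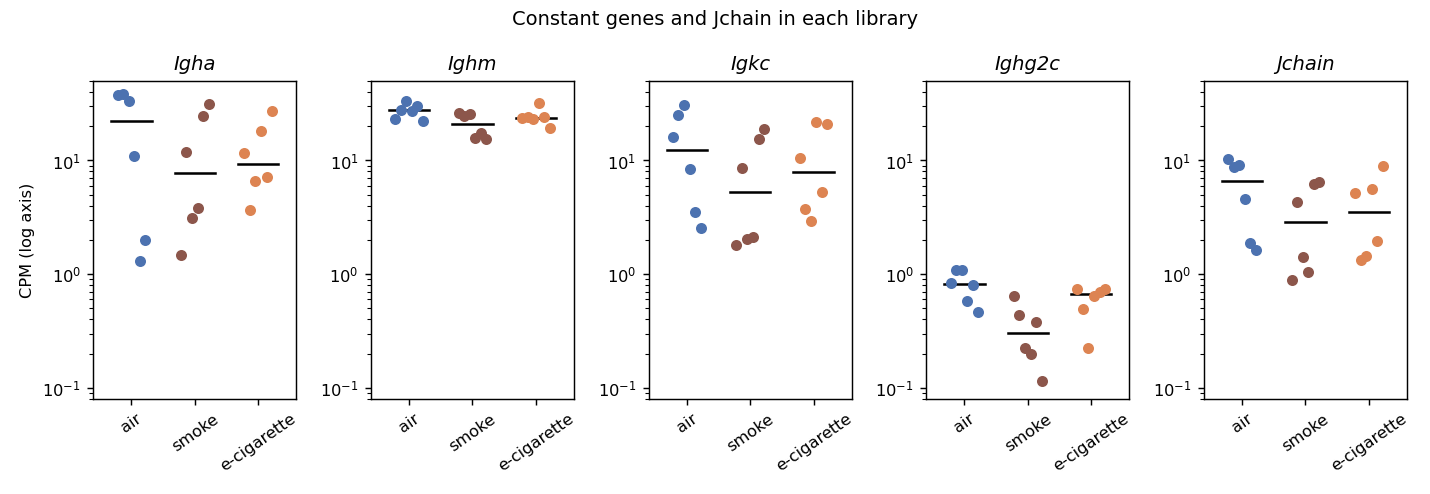
Level of 4 constant genes and of Jchain in each library, in CPM on a log axis. Each point is 1 library, in replicate order from left to right within a group, and the bar is the median of 6 libraries. Igha, Igkc and Jchain spread widely within every group, while Ighm stayed between 15.3 and 33.4 CPM.

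Of the IgG isotypes, which act mainly in blood and tissue fluid, Ighg2c was the one counted in all 18 libraries. Ighg2c (ENSMUSG00000076612, chr12:113285325-113288932, minus strand) had 8 to 19 counts in the air, 2 to 10 in the smoke and 4 to 16 in the e-cigarette libraries. Its level was 0.812 ± 0.256 CPM in air (SD, n = 6), 0.332 ± 0.191 in smoke and 0.587 ± 0.200 in e-cigarette libraries. Smoke libraries 2 to 6 lay below every air library, and smoke library 1 lay within the range of air. The log2 fold change in smoke against air was -1.29 (SE 0.37, 95% interval -2.06 to -0.52, unadjusted p = 0.00229), and with an edgeR adjusted p of 0.0697 it did not pass. Over the alternatives the adjusted p ranged from 0.0521 to 0.140. In smoke against e-cigarette the value was -0.84 (SE 0.38, unadjusted p = 0.0381, adjusted p = 0.142).

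The other isotypes had few counts, and those of Ighg1 and Ighg2b came mainly from a few libraries. Ighg1 had 69 of its 86 counts in air library 1 and 10 more in air library 3. Ighg2b had 32 counts in smoke library 6 and 23, 19 and 39 in e-cigarette libraries 2, 4 and 6, with at most 3 in each remaining library. Ighd, the IgD constant gene that naive B cells co-express with Ighm, was thin in all 18 libraries, with 1 to 17 counts. Ighe and Ighg3 had 1 count each in the whole table and are no members.

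As shares of the heavy constant counts, IgA took 33.7% ± 24.0 in air (SD, n = 6), 31.2% ± 24.5 in smoke and 29.5% ± 14.7 in e-cigarette libraries. The lowest air library had 3.97% (exact 95% binomial interval 2.53 to 5.89) and the highest 57.1% (54.1 to 60.0). In smoke the range was 5.10% to 63.7% and in e-cigarette libraries 12.3% to 54.6%, so the groups overlapped over nearly their whole ranges. IgM took most of the remainder, and all other isotypes together took 1.53% to 7.78%. The intervals cover counting error only, since reads were counted without molecular identifiers.

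Light chains were mainly kappa. Igkc (ENSMUSG00000076609, chr6:70726435-70726966, plus strand) ranged from 2.57 to 30.8 CPM in air (median 12.3), from 1.79 to 18.8 in smoke (median 5.33) and from 2.96 to 21.97 in e-cigarette libraries (median 7.92). The groups overlapped, and the high libraries were air 1, 2 and 3, smoke 5 and 6 and e-cigarette 4 and 6. The log2 fold change was -0.84 (SE 0.76, adjusted p = 0.572) in smoke against air, -0.40 (SE 0.75, adjusted p = 0.736) in e-cigarette against air and -0.44 (SE 0.76, adjusted p = 0.748) in smoke against e-cigarette. Without air libraries 4, 5 and 6 it was -1.60 in smoke (adjusted p = 0.320) and -1.14 in e-cigarette libraries (adjusted p = 0.329) against air, and without e-cigarette libraries 2, 4, 5 and 6 the last comparison changed sign to 0.25 (adjusted p = 0.957). Per kilobase of gene, the mean level in air was 27.2 CPM per kb for Igkc, 14.5 for Ighm and 7.72 for Igha.

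Kappa made up 91.7% ± 10.5 of the light constant counts in air (SD, n = 6), 93.7% ± 5.26 in smoke and 94.2% ± 8.24 in e-cigarette libraries. In air library 1 it made up 70.9% (exact 95% interval 66.0 to 75.4) and in e-cigarette library 2 78.2% (67.4 to 86.8), while the other 16 libraries had 87.5% or more. Lambda was carried by a different gene in each of these libraries: Iglc1 had 108 counts in air library 1, and Iglc2 had 16 in e-cigarette library 2. Iglc3, a near copy of Iglc2, had 11 counts in all. In e-cigarette library 5 no lambda constant count was found among 92 light constant counts, which allows a lambda share of up to 3.26% by the limit of 3 counts of the total.

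**Figure D2:**
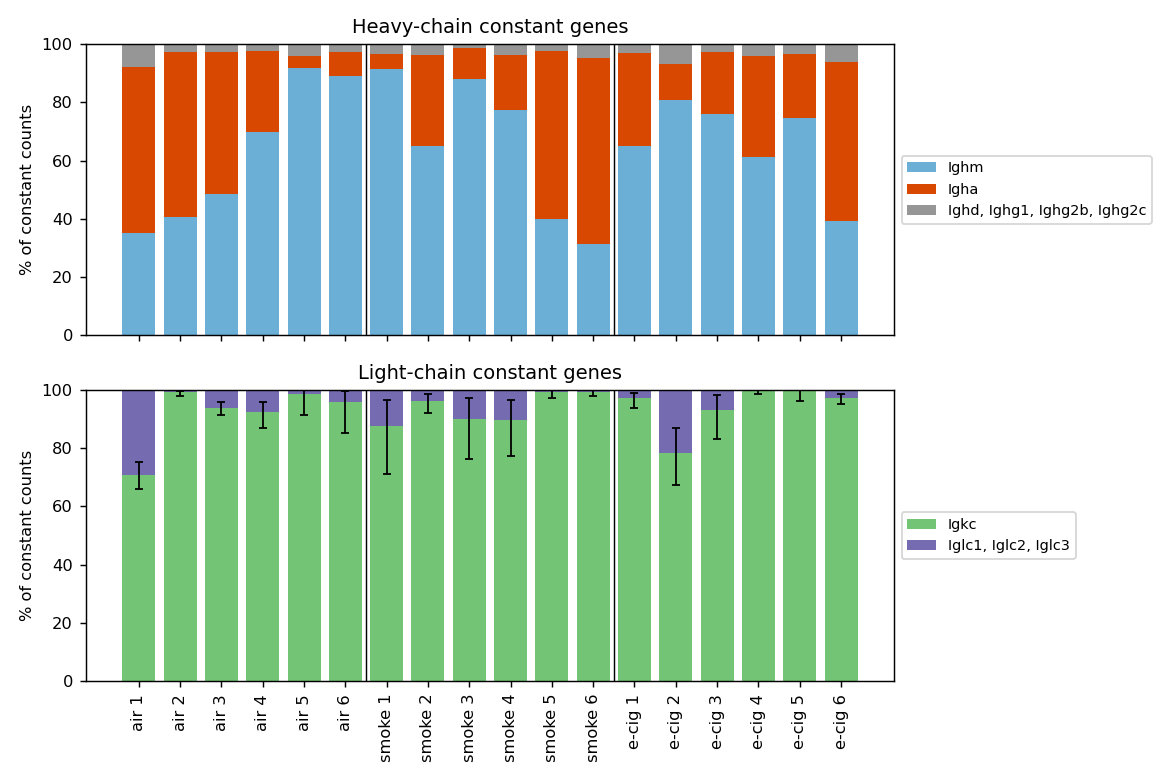
Make-up of the heavy (top) and light (bottom) constant counts in each of 18 libraries, in percent. Stacked bars give the share of each gene or gene group, lines on the lower bars give the exact 95% interval of the kappa share, and vertical lines separate air, smoke and e-cigarette libraries. The IgA share ran from 3.97% to 63.7%, and air library 1 and e-cigarette library 2 had the lowest kappa shares.

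Igha, Igkc, Jchain and the heavy V genes were high in the same libraries. On log2 CPM over 18 libraries, Igha and Igkc had a Pearson r of 0.929 and a Spearman rho of 0.907 (permutation p = 2e-05 for each, the smallest that the permutations can give, adjusted p = 5.33e-05 over 8 pairs of measures). Within the groups r was 0.954 in air, 0.978 in smoke and 0.924 in e-cigarette libraries, and it was 0.948 without the 2 libraries farthest from the median of Igha. For Igha and Jchain r was 0.920 and rho 0.905 (same p, 0.941 without the 2 farthest). For Igha and the summed heavy V genes r was 0.889 and rho 0.856 (same p, 0.884 without the 2 farthest), and 0.965, 0.836 and 0.894 within air, smoke and e-cigarette libraries.

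No such relation was detected for Ighm. Its r with Igha was -0.115 (rho -0.0671, permutation p = 0.654, adjusted p = 0.736), with Igkc 0.0842 (rho 0.156, permutation p = 0.736) and with the summed heavy V genes -0.115 (rho -0.125, permutation p = 0.651, adjusted p = 0.736). Within smoke the r of Ighm and Igha was -0.612 (exact permutation p = 0.153, n = 6). Per 100 Igha counts there were 8.29 to 60.9 heavy V counts, a range of 7.34 times. Per 100 Ighm counts there were 0.750 to 60.8, a range of 81.0 times. Air library 5 had 533 Ighm, 23 Igha and 4 heavy V counts, and smoke library 6 had 265 Ighm, 537 Igha and 161 heavy V counts. Reads on the opposite strand cannot be separated, since the library kit does not mark strand, and their part in the Ighm counts was not tested.

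**Figure D3:**
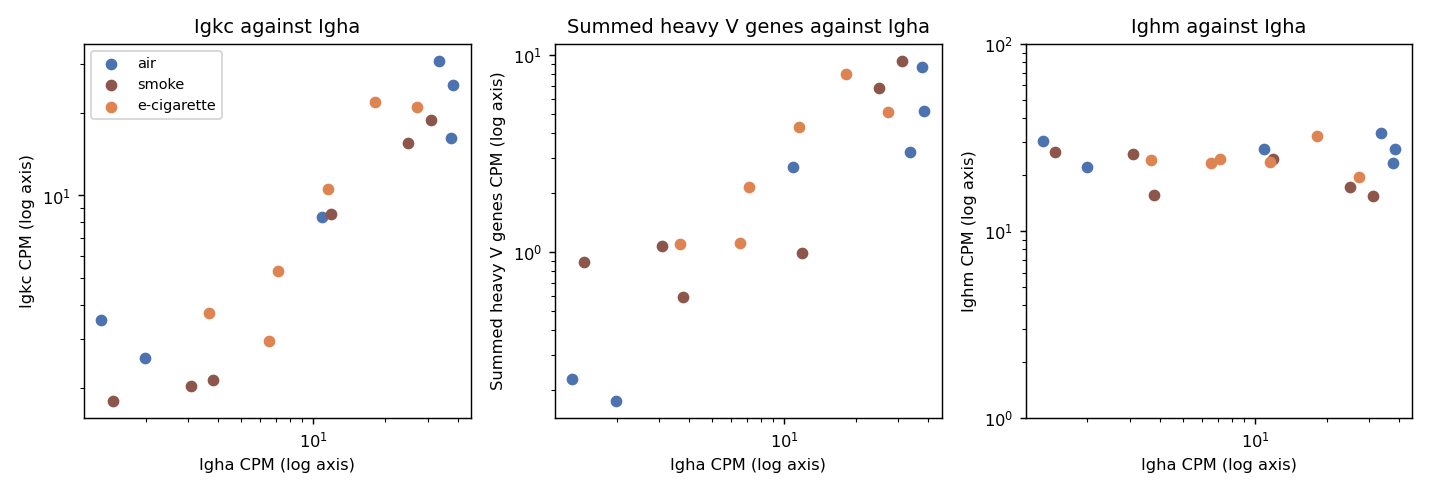
Igkc (left), the 29 heavy V genes summed (middle) and Ighm (right) against Igha, all in CPM on log axes, 1 point per library coloured by group. The first 2 panels rise with Igha (r 0.929 and 0.889), and Ighm stays between 15.3 and 33.4 CPM over the whole range of Igha (r -0.115).

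Most V members had 50% or more of their counts in 1 library. The members were chosen by their summed count, so some V genes entered through 1 library or 1 group alone. The numbers that follow are therefore a description only, and other genes of like count were not examined. The 75 V members had a median of 61.7% of their counts in a single library, 55 of them had 50% or more there, 18 had 90% or more and 9 were counted in 1 library alone. By group, 31 V members were counted in all 3 groups, 28 in a pair of groups and 16 in 1 group (7 in air, 3 in smoke, 6 in e-cigarette libraries). The library with the top count was an air library for 27, a smoke library for 24 and an e-cigarette library for 24 of the V members.

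Among the heavy V genes, 13 different genes led in the 18 libraries, and no gene led in more than 3. Ighv1-64, the heavy V gene with the highest summed count (165), led in air libraries 1 and 4 and e-cigarette library 4 with 37, 29 and 56 counts, and had 22 in smoke library 5. Ighv1-26 had 44 counts in e-cigarette library 6, 13 in e-cigarette library 3 and 12 in air library 2. Ighv14-3 had 27 counts in e-cigarette library 5 and 18 in e-cigarette library 6, and 2 in all others together. Ighv1-72 had 40 of 53 counts in air library 2, and Ighv1-52 had 42 of 44 in e-cigarette library 4. Ighv13-2 (27 counts, air library 1), Ighv1-84 (15 counts) and Ighv1-7 (13 counts, both e-cigarette library 6) were counted in 1 library each. Only 7.49% of the 50-base windows of Ighv1-72 and 29.7% of those of Ighv1-52 were unique, so close copies may share their reads.

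The leading heavy V gene held 46.0% ± 17.6 of the heavy V counts of a library in air (SD, n = 6), 39.3% ± 21.5 in smoke and 49.9% ± 19.3 in e-cigarette libraries, and the ranges overlapped (18.6% to 78.9% over all 18 libraries). When the counts of a group were pooled, the leading gene held 19.9% in air, 13.3% in smoke and 16.1% in e-cigarette libraries. Shares in libraries with few V counts are imprecise: the 66.7% of Ighv3-6 in air library 6 rested on 2 of 3 counts (exact 95% interval 9.43 to 99.2). The effective number of heavy V genes (the inverse Simpson index, the number of equally used genes that would give the same evenness), with each library thinned to 40 V counts, was 2.30 to 5.71 in 4 air libraries, 6.28 and 6.66 in 2 smoke libraries and 3.53 to 5.65 in 3 e-cigarette libraries. The other 9 libraries had fewer than 40 heavy V counts and gave no value.

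By family, the Ighv1 genes, the largest heavy V family of this strain, supplied 58.1% of the heavy V counts with 14 of the 29 members. Their share was 57.7% ± 24.4 in air (SD, n = 6), 53.4% ± 20.9 in smoke and 63.4% ± 22.7 in e-cigarette libraries, a difference smaller than the spread. The air mean includes air library 5 with 100% of 4 counts and air library 6 with 33.3% of 3. Pooled by group, the share was 50.1% in air, 61.1% in smoke and 62.1% in e-cigarette libraries, so air and smoke changed order. Smoke library 3 was lowest with 15.8% of 19 heavy V counts, since Ighv11-2 held 15 of them.

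Kappa V genes were as scattered, with 15 different leaders in 18 libraries. Igkv10-94 led in air libraries 4 and 6 and smoke library 5 with 45, 10 and 46 counts, and its near copy Igkv10-96 led in air library 1 and e-cigarette library 5 with 36 and 31. Igkv1-117 had 79 of 115 counts in smoke library 6 and 20 in e-cigarette library 1. Igkv17-127 had 68 of 120 in e-cigarette library 4 and 35 in smoke library 5. Igkv16-104 had 72 of its 74 counts in e-cigarette library 6, and all its windows of 50 bases were unique to it. Igkv1-110 was the kappa V gene found in the most libraries, 11 of 18, with at most 27 counts in any.

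The leading kappa V gene held 35.6% ± 16.9 of the kappa V counts of a library in air (SD, n = 6), 36.8% ± 16.1 in smoke and 42.1% ± 14.5 in e-cigarette libraries, with overlapping ranges. Pooled by group, the leading gene held 11.7%, 16.7% and 11.4% in air, smoke and e-cigarette libraries. Thinned to 40 counts, the effective number of kappa V genes was 3.91 to 9.19 in 4 air libraries, 4.76 to 7.23 in 3 smoke libraries and 2.05 to 6.25 in 5 e-cigarette libraries. The ranges overlapped.

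**Figure D4:**
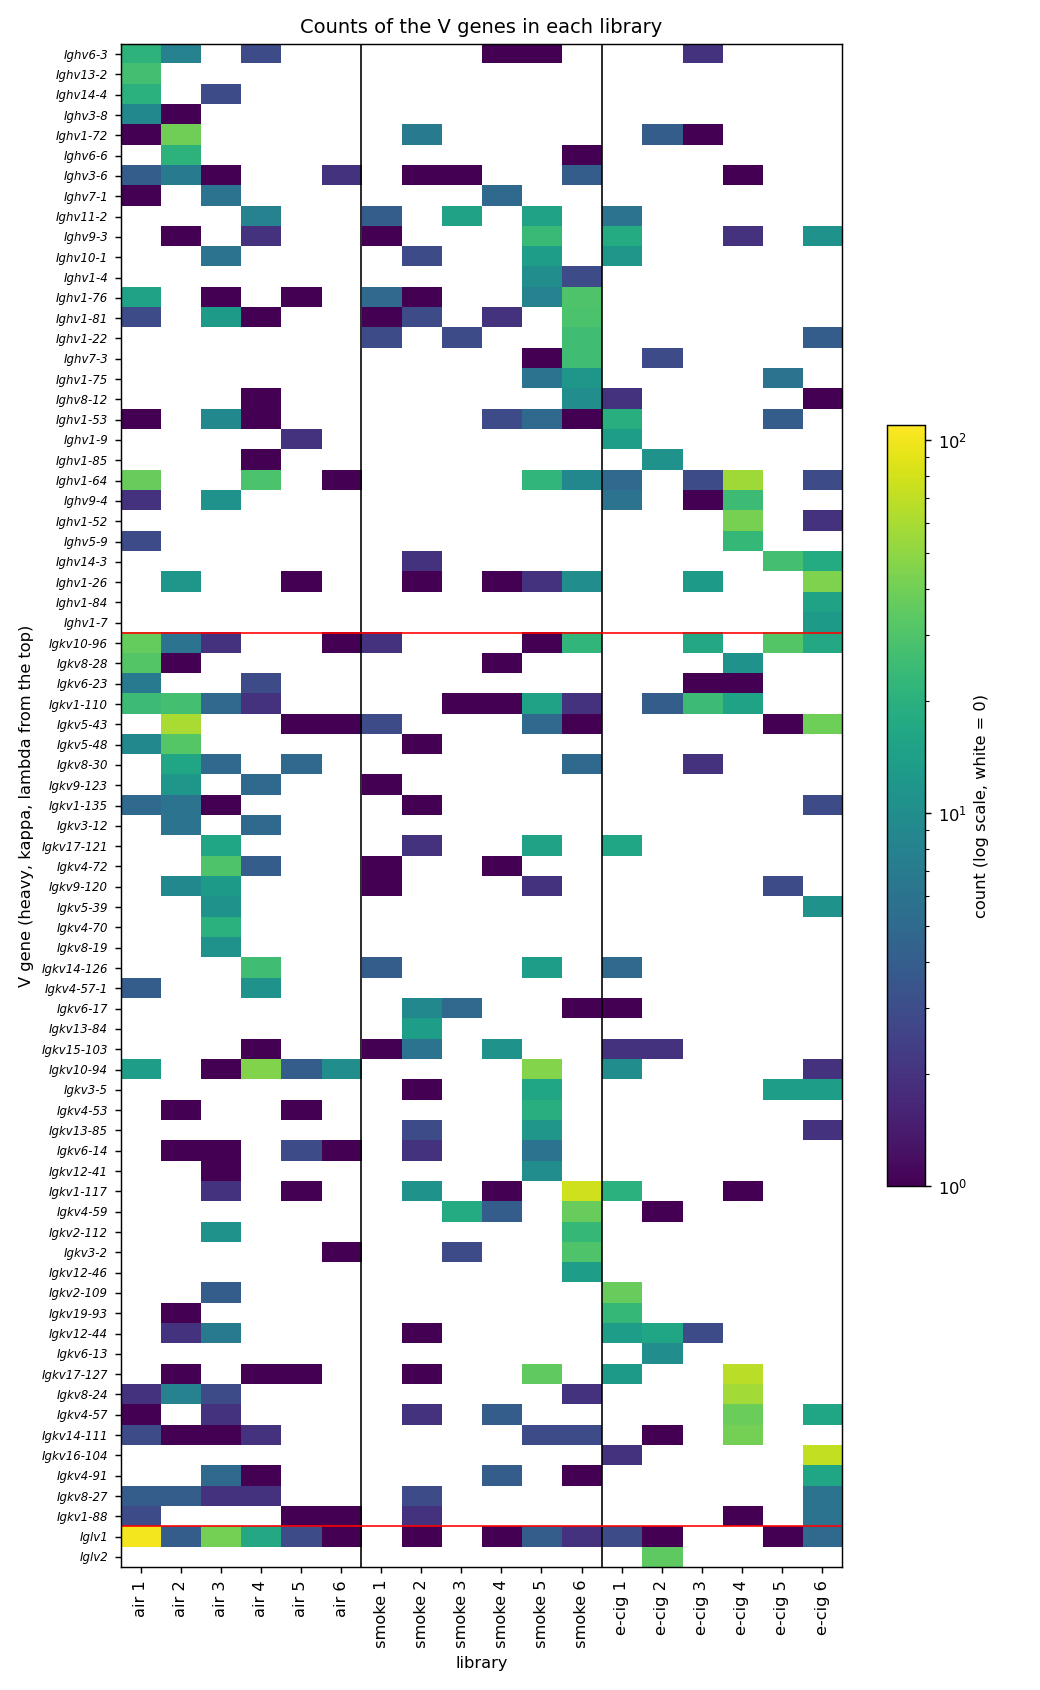
Counts of the 75 V members (lines of the map) in the 18 libraries (columns) on a log colour scale, with white for a count of 0. Heavy, kappa and lambda V genes are separated by red lines, the groups by black lines, and genes are ordered by the library with their top count, so the bright cells run as a diagonal from library to library.

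Some segments were high in the same library, and these were picked after their values were seen. In air library 1, Iglv1 had 102 counts, Iglc1 108 and Ighg1 69, and in air library 3 they had 41, 24 and 10. In e-cigarette library 2, Iglv2 had all of its 34 counts and Iglc2 16 of its 61. Ighv11-2 and Igkv14-126, which are known to pair in antibodies of B-1 cells that bind phosphatidylcholine, were counted together in 4 libraries: air 4 (8 and 26 counts), smoke 1 (4 and 4), smoke 5 (15 and 14) and e-cigarette 1 (6 and 5). Igkv14-126 was counted in no other library, and Ighv11-2 in 1 more, smoke library 3. Bulk counts do not show whether heavy and light segments came from the same cell.

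Heavy J segments were counted rarely, with 13 to 27 counts each and 80 in all. Ighj1 had 25 counts, 11 of them in smoke library 3, where Ighv11-2 was high as well. Ighj4 had 27 counts spread over 12 libraries, with at most 5 in any, Ighj3 had 15 and Ighj2 13. The summed J count was highest in smoke libraries (2 to 16), with 0 to 7 in air and 1 to 4 in e-cigarette libraries, and the groups overlapped. The D segment Ighd3-1 had 10 of its 12 counts in air library 5, a library with 4 heavy V and 4 heavy J counts, and 2 in smoke library 5.

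No member passed the test in any of the 3 comparisons. The edgeR quasi-likelihood test could be run on 4 of 90 members (Igha, Ighm, Ighg2c and Igkc), since the other 86 fell below the filter on low counts. In smoke against air 0 of these were called at an adjusted p below 0.05, beside 1.59% of all 17537 genes tested (0.975% higher, 0.616% lower), and 2 had an unadjusted p below 0.05 (Ighg2c and Ighm), beside 19.9%. In e-cigarette against air 0 were called beside 25.1%, and 0 had an unadjusted p below 0.05 beside 36.9%. In smoke against e-cigarette 0 were called beside 16.5%, and 1 (Ighg2c) had an unadjusted p below 0.05 beside 29.4%. DESeq2 called 0 in each comparison as well, with 2, 0 and 1 at an unadjusted p below 0.05. The ranges of all 4 members overlapped in every comparison, beside 2.43%, 10.5% and 9.37% of all genes tested without overlap in smoke against air, e-cigarette against air and smoke against e-cigarette. The comparisons share groups, so they are not independent. Without a filter on low counts all 90 were tested, and 4 V genes were then called lower in e-cigarette than in air libraries: Iglv1 (log2 fold change -4.16), Igkv9-123 (-4.61), Igkv5-48 (-5.84) and Ighv6-3 (-3.69). Of these genes Iglv1 had 102 of its 168 air counts in 1 library, Igkv5-48 had 32 of 41, Ighv6-3 21 of 32 and Igkv9-123 12 of 17. The share of all genes called in that fit was not computed, so these 4 calls have no share to stand beside. The summed level of all members was 77.7 ± 40.2 CPM in air (SD, n = 6), 52.2 ± 26.8 in smoke and 60.2 ± 24.9 in e-cigarette libraries, and the groups overlapped.

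**Figure D5:**
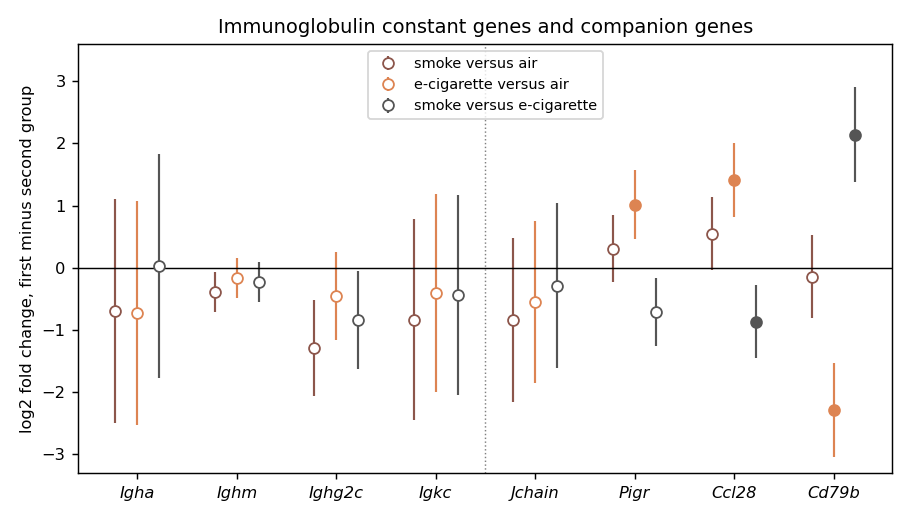
Log2 fold change (first minus second group) of the 4 tested members, left of the dotted line, and of 4 companion genes, right of it, in the 3 comparisons. Lines are 95% intervals from the edgeR fit, filled points passed at an adjusted p below 0.05 and open points did not. No immunoglobulin gene has a filled point, and the intervals of Igha, Igkc and Jchain span 0 in every comparison.

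Genes of antibody secretion showed no call in smoke against air and several in e-cigarette against air. Over all genes tested, 1.59% were called in the first comparison and 25.1% in the second. Of 20 tested genes of plasma cells and antibody secretion, 0 were called in smoke against air (median log2 fold change -0.06, beside 0.01 over all genes tested). Without air libraries 4, 5 and 6, Creld2 (log2 fold change -0.94, adjusted p = 0.0235) and Hspa5 (-0.81, adjusted p = 0.0362) passed in smoke against air. In e-cigarette against air 7 fell and 1 rose (median -0.19, beside 0.01), where 13.0% of all genes tested fell and 12.1% rose. The 7 that fell were Hspa5, Hsp90b1, Pdia4, Creld2, Derl3, Sec11c and Mzb1. The first 4 of these assist protein folding in the endoplasmic reticulum of any secretory cell, and Derl3 acts in the removal of misfolded proteins there. Hspa5 went from 1304 ± 413 CPM in air to 596 ± 80.6 in e-cigarette libraries (SD, n = 6, log2 fold change -1.13, SE 0.17), and Creld2 from 135 ± 52.0 to 47.5 ± 8.97 (log2 fold change -1.51, SE 0.19). Prdm1, which drives plasma cell formation and also acts in epithelia, rose. E-cigarette libraries 2, 4, 5 and 6 were low in thyroid genes, and the part of the tissue in these changes was not tested. Jchain, the member of the list tied most closely to IgA, was 6.05 ± 3.86 CPM in air, 3.39 ± 2.61 in smoke and 4.09 ± 3.06 in e-cigarette libraries, and was not called (adjusted p = 0.483 and 0.553 against air). Hspa5, Pdia4, Derl3, Hsp90b1 and Creld2 were higher in smoke than in e-cigarette libraries, 5 of 20, and 0 lower, where 10.4% of all genes tested were higher and 6.10% lower.

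Of 20 genes of the B cell list 11 passed the filter on low counts. Ms4a1, which encodes CD20, was at 0 in 1 air, 1 smoke and 4 e-cigarette libraries. Cd79a, a signalling chain of the B cell receptor, was 0.285 ± 0.144, 0.285 ± 0.178 and 0.294 ± 0.090 CPM in air, smoke and e-cigarette libraries (SD, n = 6). Its partner Cd79b was 2.54 ± 0.931 CPM in air, 2.31 ± 0.292 in smoke and 0.510 ± 0.431 in e-cigarette libraries, and it fell in e-cigarette against air (log2 fold change -2.29, SE 0.37, edgeR adjusted p = 1.45e-04). Of 11 tested genes of the B cell list 0 were called in smoke against air, beside 1.59% of all genes tested. In e-cigarette against air 3 fell (Spib, Fcer2a, Cd79b) and 1 rose (Ebf1), where 13.0% of all genes tested fell and 12.1% rose. The median there was -0.08 beside 0.01 over all genes. Ebf1, a transcription factor of B cells that other tissues also use, had 13.8 to 33.6 CPM in the 18 libraries. Spib, Fcer2a and Cd79b were higher in smoke than in e-cigarette libraries, 3 of 11, and 0 were lower, where 10.4% of all genes tested were higher and 6.10% lower. E-cigarette libraries 2, 4, 5 and 6, low in thyroid genes, were also the 4 lowest in Cd79b, and the part of the tissue in this difference was not tested. Without e-cigarette libraries 2, 4, 5 and 6 the Cd79b log2 fold change against air was -1.45 (adjusted p = 0.0449).

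Genes of the list for IgA transport, homing and survival went in different directions. Ccl28, a chemokine of glands and mucosa that draws IgA-secreting cells, was 27.4 ± 12.7 CPM in air (SD, n = 6), 40.1 ± 9.57 in smoke and 73.0 ± 20.6 in e-cigarette libraries. It rose in e-cigarette against air (log2 fold change 1.42, SE 0.28, edgeR adjusted p = 0.00140). Every e-cigarette library lay above every air library, beside 10.5% of all genes tested without overlap in that comparison. Pigr was 440 ± 191 CPM in air, 545 ± 108 in smoke and 890 ± 239 in e-cigarette libraries, and rose in e-cigarette against air (log2 fold change 1.02, SE 0.26, adjusted p = 0.00817). Cxcl13, which draws B cells into follicles, was 30.1 ± 6.15 CPM in air, 19.3 ± 5.44 in smoke and 5.13 ± 2.05 in e-cigarette libraries, and fell (log2 fold change -2.55, SE 0.23). Of 14 tested genes of IgA transport, homing and survival, 3 rose (Pigr, Ccl28, Tnfsf13) and 2 fell (Cxcl13, Tgfb1) in e-cigarette against air. The median there was -0.19 beside 0.01, and 12.1% of all genes tested rose and 13.0% fell. In smoke against air 0 of 14 were called, beside 1.59% of all genes tested. Without air libraries 4, 5 and 6 Tgfb1 passed in smoke against air (log2 fold change -1.06, adjusted p = 0.00384). Cxcl13 and Cxcl12 were higher and Ccl28 lower in smoke than in e-cigarette libraries, 3 of 14 beside 16.5% of all genes tested. Gland genes rose too in e-cigarette against air, 5 of 7 tested (Csn3, Pip, Lpo, Smgc and Dcpp1), beside 12.1% of all genes tested. Pip and Smgc also rose in smoke against air, 2 of 7 beside 0.975%. Between smoke and e-cigarette libraries 0 of 7 were called, beside 16.5%. The part of the gland genes in the Ccl28 and Pigr values was not tested. Without e-cigarette libraries 2, 4, 5 and 6 the values against air were 0.89 for Ccl28 (adjusted p = 0.218) and 0.62 for Pigr (adjusted p = 0.382), and both calls ended. Without air libraries 4, 5 and 6, low in gland transcripts, they were 0.97 for Ccl28 (adjusted p = 0.0144) and 0.58 for Pigr (adjusted p = 0.0472), and Pigr then also passed as lower in smoke than in e-cigarette libraries (log2 fold change -0.72, adjusted p = 0.00546).

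The correlation of Pigr with Igha differed with the libraries used. Over 18 libraries r was 0.547 (permutation p = 0.0185, adjusted p = 0.0370 over 8 pairs) and rho 0.441 (adjusted p = 0.137). Without air library 5 and smoke library 1, the 2 farthest from the median of Igha, r was 0.338. Within air r was 0.926 (exact permutation p = 0.0139, n = 6), within smoke 0.554 (exact p = 0.242) and within e-cigarette libraries 0.720 (exact p = 0.106). Lpo, a peroxidase of secretory glands, had r of 0.415 with Igha (permutation p = 0.0983, adjusted p = 0.157, rho 0.0877), with 0.978 within air, -0.377 within smoke and 0.565 within e-cigarette libraries.

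Calls on genes that join and remodel antibody genes were few in number, and so were the genes tested. Rag1 and Rag2, which cut the V, D and J segments for joining, were rarely counted: Rag1 had 14 counts, at 0 in all 6 air libraries, 0.109 CPM in smoke library 2 and 0.0524 to 0.216 CPM in 5 of 6 e-cigarette libraries, and Rag2 had 1 count each in smoke library 6 and e-cigarette library 5. Of 12 tested genes of switching and mutation 0 were called in smoke against air (median 0.06 beside 0.01), beside 1.59% of all genes tested. In e-cigarette against air Bcl6 and Polh rose and S1pr2 fell (median 0.05 beside 0.01), 3 of 12 beside 25.1% of all genes tested. Gcsam was higher in smoke than in e-cigarette libraries, 1 of 12 beside 16.5%. Of 6 tested genes of V(D)J joining and B cell precursors Tcf3 was the one called, lower in e-cigarette than in air and than in smoke libraries, 1 of 6 beside 25.1% and 16.5%. Of 9 tested immunoglobulin receptors 0 were called in smoke against air, beside 1.59% of all genes tested. In e-cigarette against air Fcamr and Fcgrt rose and Fcgr4 and Fcer2a fell (median 0.03 beside 0.01), 4 of 9 beside 25.1%. In smoke against e-cigarette Fcer2a was higher and Fcamr lower, 2 of 9 beside 16.5%.

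Of 35 calls on named companion genes over the 3 comparisons, 5 held in all 28 alternatives: Cd79b, Creld2, Cxcl13 and Hspa5 in e-cigarette against air, and Cxcl13 in smoke against e-cigarette. The other 30 ended without e-cigarette libraries 2, 4, 5 and 6, which leaves 2 libraries in that group. In 19 of these 30 the log2 fold change stayed within 1.5 times of its value with all libraries (Spib -0.79 and -0.80, Tgfb1 -0.94 and -0.92, e-cigarette against air), and in 11 it was smaller by more than that (Fcer2a -2.88 and -1.84). Without air libraries 4, 5 and 6, 7 calls ended. For 8 calls a single left-out library was enough. In e-cigarette against air, Spib ended without air 2, air 6 or e-cigarette 5 (edgeR adjusted p 0.0515 to 0.0654), and Mzb1 without air 2, air 5 or e-cigarette 1, 2 or 5 (0.0565 to 0.0930). Fcgr4 ended without air 1, 5 or 6 or e-cigarette 2, 4, 5 or 6 (0.0579 to 0.106), and Fcgrt without air 3, 4, 5 or 6 or e-cigarette 2, 3, 4 or 5 (0.0535 to 0.119). Ebf1 ended without air 2 to 6, smoke 2, 4 or 6 or e-cigarette 3, 4 or 5 (0.0502 to 0.135). In smoke against e-cigarette, Ccl28 ended without air 4, smoke 1 to 5 or e-cigarette 2, 4, 5 or 6 (0.0517 to 0.0882), and Hspa5 without smoke 1, 3, 4, 5 or 6 or e-cigarette 1, 2, 4, 5 or 6 (0.0518 to 0.115). Spib ended there without any of 14 libraries: air 1, 4 or 5, smoke 1 to 6, or e-cigarette 1, 2, 3, 5 or 6 (0.0521 to 0.118).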

How the data were processed

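Gene counts of 18 mouse larynx RNA-seq libraries were used as the authors deposited them, as whole-number counts per gene in 1 table. Per the submitters' processing notes, STAR, featureCounts 1.5.0-p3 and the builds GRCm38 and mm10 were used, and their settings were not stated. Groups came from the labels. The members and gene lists were chosen with earlier results of these data known.

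Counts were tested with edgeR 4.0.16 (quasi-likelihood, TMM, robust, R 4.3.3) on all 3 groups in 1 fit after filterByExpr (minimum count 10, minimum total 15), with Benjamini-Hochberg adjustment over 17537 genes and a threshold of 0.05. The test was checked on simulated data. DESeq2 1.42.0, other scalings and filters, a replicate block and left-out libraries were alternatives, and the sets without air libraries 4, 5 and 6 or e-cigarette libraries 2, 4, 5 and 6 were added later. Shares carry exact Clopper-Pearson 95% intervals, which cover counting error only. V gene evenness was averaged over 100 draws of 40 counts. Correlations used 100000 permutations, or exact ones within groups of 6 (SciPy 1.17.1). Within a group no library looked deposited more than once: chi-square per degree of freedom was 15.4 to 134 over 45 pairs. Pairs of libraries from different groups were not compared in this way. Sequences and uniqueness came from GENCODE M21 transcripts, where all 90 members matched.

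Named were all constant members, the 5 V members of each chain with the highest summed count, V genes that led in a library, the top 3 J and D members, up to 4 called companion genes per list and comparison with the smallest p, and Jchain, Pigr, Mzb1, Cd79a, Ms4a1, Tnfrsf17 and Ccl28. Some genes of this rule are not reported here. Other named genes were chosen after their values were seen.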

Additional observations from a re-analysis of the deposited data

Results flagged for a closer look

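A value was set apart where the gap between the highest or lowest of 6 libraries and its nearest neighbour was too large a share of the range of the group by Dixon's test at the 95% level. Chance sets apart about 1 in 20 groups. Members were examined in groups where they had at least 10 counts. Of the 40 member values set apart, 30 came from groups with fewer than 10 counts in the other 5 libraries, so the member was examined only through that library; the share by chance does not apply to these, and they are given as a description. Of 173 groups of values, 49 held such a library, and 36 of these were V, J or D members, whose counts often came from a single library.

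In air library 1 Ighg1 (4.15 CPM), Ighv1-76 (0.902 CPM), Igkv10-96 (2.16 CPM) and Iglc1 (6.49 CPM) were far above the other 5 libraries. In air library 2 Ighv1-26 (0.690 CPM), Ighv1-72 (2.30 CPM), Igkv5-43 (3.51 CPM) and Igkv8-30 (0.920 CPM) were far above the other 5 libraries. In air library 3 Ighv1-53 (0.577 CPM), Ighv1-81 (0.834 CPM) and Igkv4-72 (1.92 CPM) were far above the other 5 libraries. In air library 4 Igkv10-94 (2.63 CPM) and Igkv14-126 (1.52 CPM) were far above the other 5 libraries. In air library 5 Ighd3-1 (0.569 CPM) was far above the other 5 libraries.

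In smoke library 2 Igkv13-84 (0.765 CPM) was far above the other 5 libraries. In smoke library 3 Ighj1 (0.619 CPM) was far above the other 5 libraries. In smoke library 5 Ighv9-3 (1.51 CPM), Igkv1-110 (0.946 CPM), Igkv10-94 (2.90 CPM), Igkv14-126 (0.883 CPM) and Igkv17-127 (2.21 CPM) were far above the other 5 libraries. In smoke library 6 Ighg2b (1.85 CPM), Ighv1-26 (0.579 CPM), Ighv1-76 (1.74 CPM), Ighv1-81 (1.68 CPM), Igkv1-117 (4.57 CPM) and Igkv10-96 (1.27 CPM) were far above the other 5 libraries.

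In e-cigarette library 1 Ighv1-53 (0.996 CPM), Ighv1-9 (0.734 CPM), Igkv1-117 (1.05 CPM), Igkv10-94 (0.524 CPM) and Igkv2-109 (1.94 CPM) were far above the other 5 libraries. In e-cigarette library 2 Ighv1-85 (0.672 CPM), Iglc2 (0.978 CPM) and Iglv2 (2.08 CPM) were far above the other 5 libraries. In e-cigarette library 4 Ighv1-64 (3.02 CPM) and Igkv17-127 (3.67 CPM) were far above the other 5 libraries. In e-cigarette library 6 Ighv1-26 (2.03 CPM), Igkv16-104 (3.31 CPM) and Igkv5-43 (1.80 CPM) were far above the other 5 libraries.

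Among companion genes, Cd79b in e-cigarette library 1 (1.31 CPM), Creld2 in smoke library 3 (106 CPM), Cxcl12 in air library 2 (127 CPM), Fcer2a in e-cigarette library 1 (0.681 CPM), Pigr in smoke library 5 (751 CPM) lay far above the rest of their groups, and Cd79a in e-cigarette library 5 (0.115 CPM) far below. The kappa share of light constant counts was far below its group in air library 1 (70.9%) and in e-cigarette library 2 (78.2%), and the share of isotypes other than IgA and IgM was far above its group in air library 1 (7.78%).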

How the results depend on the processing

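The count of called members changed under 1 alternative, for which the share of all genes called was not computed. With no filter on low counts, the count was 4 of 90 in e-cigarette against air in place of 0. It was 0 in all other alternatives and comparisons, including DESeq2, other scalings, each left-out library, and the sets without air libraries 4, 5 and 6 or without e-cigarette libraries 2, 4, 5 and 6. Same-numbered libraries did not deviate together: 4 of 18 pairs had a correlation above 0.1 (range -0.498 to 0.216), and 0 libraries correlated best with their own number. With the replicate number as a block, 0 members were called in each comparison, and 7 of 35 companion calls ended. Over all alternatives, 127 fold changes of named genes fell short of a threshold they had passed, 26 newly passed one, and 2191 kept their side. The cause was not tested. For the levels, shares and V gene numbers, 11 alternative values lay farther than the SD of the group from its mean, and 154 did not. With each library left out in turn, the summed member level was 69.7 to 87.5 CPM for the air group, 44.5 to 57.6 for smoke and 53.1 to 64.7 for e-cigarette. Depth limits the V genes: 9 of 18 libraries had under 40 heavy V counts.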
